A study of Arabidopsis thaliana with 24 samples.

Results

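A set of 200 loci lay lower in wild-type Arabidopsis hypocotyls after 120 min on the synthetic auxin picloram, while their levels at 30 min were close to those of the solvent control, DMSO. They were chosen on measured values. In experiment a, rows of 12 NimbleGen arrays were kept if their mean log2 level was at least 10 and their difference between picloram and DMSO at 30 min was under 0.3 on the log2 scale in either direction. This left 13020 of 30361 loci, and the 200 with the most negative difference at 120 min form the set. Every difference between picloram and DMSO in experiment a was used in this way and is described here without a test. The same loci were then followed in experiment b, whose 12 arrays had no part in the choice and carry 199 of the 200 (AT3G44040 was not on that chip).

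Each experiment held 4 groups of 3 biological replicates. In experiment a, Col-0 seedlings were kept on 5 µM picloram or on DMSO for 30 or 120 min, about 400 hypocotyls were pooled per sample, and the RNA was amplified. All picloram samples of experiment a carried Cy3 and all DMSO samples Cy5, and what the dye and what the treatment did cannot be told apart in those arrays. In experiment b, seedlings of the picloram-resistant afb5-5 line (SALK_110643, an insertion line, represented by this 1 allele) and of wild type were kept for 2 h on 5 µM picloram or on DMSO, about 700 hypocotyls were pooled per sample, the RNA was not amplified and every sample carried Cy3. Seedlings were 5 days old and were transferred 2 h after dawn in long days, so treated and control plants shared the same time of day at each harvest. The cell types within a dissected hypocotyl were not separated, and in such tissue fewer cells of a type and less RNA per cell cannot be told apart. The signals of 23 light-harvesting and Rubisco genes were bright on both chips (mean log2 levels per array of 12.67 to 14.62), as in green tissue, and no gene that marks the hypocotyl alone was at hand.

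F-box proteins named TIR1 and AFB perceive auxin by binding it together with an Aux/IAA repressor, which is then degraded. This frees auxin response factors to act on their target genes within minutes. AFB5 is the family member known for its preference for picloram. Transcripts that fall after auxin are less well understood than the early induced ones, and a later fall can follow from the products of earlier genes.

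The RNA of AFB5 itself was not called different between the genotypes. Its log2 levels on DMSO were 13.24, 13.06 and 12.97 in afb5-5, against 13.38, 13.56 and 13.39 in wild type, a difference of -0.35 ± 0.20 (SE, limma, adjusted p = 1.00). These 2 groups did not overlap. On picloram the levels overlapped, at 13.16, 12.49 and 12.90 in afb5-5, against 12.55, 13.16 and 12.65 in wild type. The transcript was bright in all 4 groups, and whether its probes lie beyond the insertion was not tested. The medians of the deposited arrays differed up to 1.72-fold in experiment a, which was therefore quantile normalized, and up to 1.03-fold in experiment b, which was used as deposited. Replicate numbers are those of the labels.

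Of the 200 loci, 195 are annotated as protein coding, 3 as pseudogenes and 1 as the miRNA locus MIR414, and AT3G44040 had no match in the annotation. They lie on all 5 chromosomes, with 57 on chromosome 1 and 33 to 41 on each of the others. The differences at 120 min ranged from -2.80 to -1.23 with a median of -1.43, and those at 30 min from -0.30 to 0.30 with a median of -0.09. The last loci inside the limit were NDL2 (AT5G11790) at -1.2325 and AT2G06045 at -1.2320, and the first outside were the transporter-like UMAMIT28 (AT1G01070) at -1.2317 and RBL13 (AT3G59520) at -1.2295, so the limit falls within a continuous range.

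The levels behind the choice came both from low picloram and from high DMSO arrays at 120 min. These levels are the ones the loci were chosen on, so a drop on picloram, a rise on DMSO or both had to appear, and they are given as a description. On picloram the median change of the set between 30 and 120 min was -1.02, and 196 of 200 loci lay lower at 120 than at 30 min. On DMSO the median change was 0.38, and 162 of 200 lay higher at 120 than at 30 min. Over the 13020 loci that passed the limits on level and on the 30 min difference, these medians were -0.02 on picloram and -0.02 on DMSO. Taking 0.5 on the log2 scale as a mark, 129 loci lay lower at 120 min on picloram with no such rise on DMSO, 24 lay higher on DMSO with no such drop on picloram, and 47 showed both. The drop on picloram exceeded the rise on DMSO for 167 loci.

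**Figure D1:**
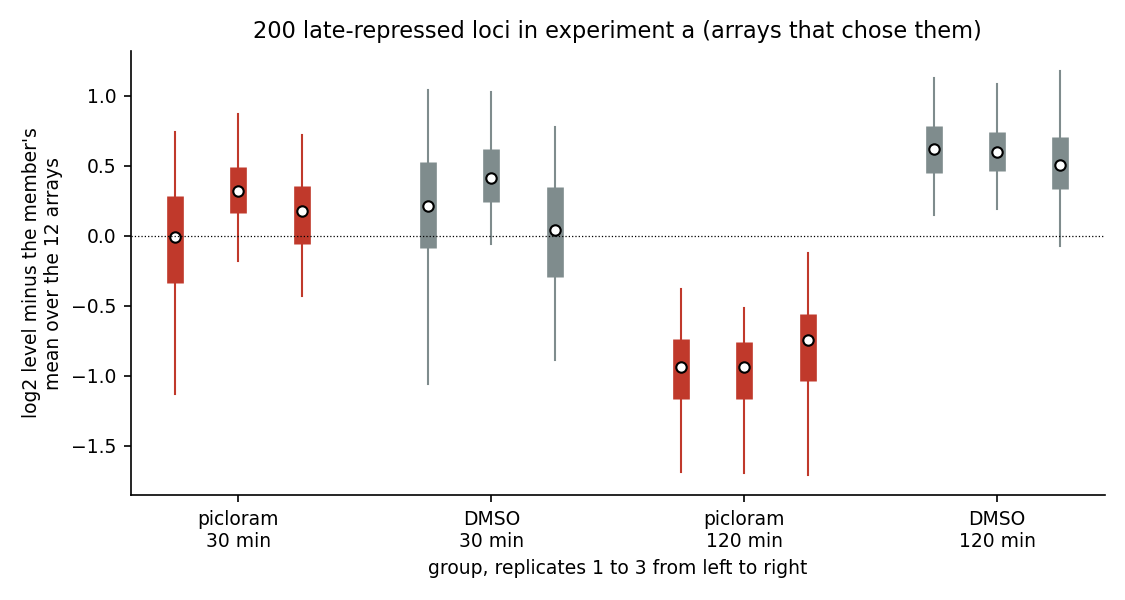
Log2 level of the 200 loci in each array of experiment a, relative to each locus's mean over the 12 arrays, for picloram and DMSO at 30 min and then at 120 min (circle, median; thick bar, middle 50%; thin line, 5th to 95th percentile). The medians lie at -0.93, -0.94 and -0.74 in the picloram arrays of 120 min, against 0.62, 0.60 and 0.51 on DMSO, as the choice of loci requires, while at 30 min they lie between -0.01 and 0.41 in all 6 arrays.

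The 3 loci furthest below the control at 120 min were a transcription factor, a hormone receptor and a response regulator. TINY (AT5G25810), a DREB-type AP2/ERF transcription factor, had log2 levels of 9.84, 9.93 and 10.32 after 120 min on picloram, against 12.85, 12.90 and 12.74 on DMSO. PYL6 (AT2G40330), an abscisic acid receptor, had 10.40, 10.67 and 10.54 on picloram, against 13.41, 13.30 and 13.02 on DMSO. ARR6 (AT5G62920), a type-A response regulator, had 8.62, 8.02 and 9.17 on picloram, against 11.06, 11.47 and 11.16 on DMSO. None of these groups overlapped. At 30 min the same 3 transcripts had overlapping levels in the treated and control arrays, with differences of 0.00 for TINY, 0.05 for PYL6 and -0.29 for ARR6, the last just inside the limit of 0.3. Next in rank were AT1G72416 (-2.25), AT1G47400 (-2.24) and AT4G10600 (-2.18). Across the whole set, the levels of the 3 picloram arrays lay below those of all 3 DMSO arrays at 120 min for 193 of 200 loci, a contrast that chose them, against 18.9% of all loci on the chip.

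In experiment b the set as a whole lay lower on picloram in wild type. The differences of experiment a were chosen for their size, so the sizes in the experiments cannot be set against each other. Of the 199 loci, 17 were called lower and 3 higher (limma, FDR under 0.05 with Benjamini-Hochberg adjustment over all 37118 transcripts), where 0.458% of all transcripts were called lower and 1.71% higher. The median change was -0.32, and 160 of 199 loci lay below 0, against a median of -0.03 and 53.5% of all transcripts below 0. For 70 loci the 3 picloram arrays lay below all 3 DMSO arrays (10.2% of all transcripts did), and for 9 they lay above (10.8%). The remaining 179 loci were not called, and at an unadjusted p under 0.05 the set held 71 lower and 7 higher loci, where 6.25% of all transcripts were lower and 7.71% higher.

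The count of 17 depended on the arrays in the fit. It was 10 without DMSO replicate 2, 7 without DMSO replicate 3, and 10, 10 and 6 without picloram replicates 1, 2 and 3 of wild type. Over all transcripts 78, 59, 97, 100 and 52 were called lower in these fits, against 170 with every sample. SFP1, AT3G15720, NdhM, AT2G17710, SMZ and CYP708A2 were called lower with each of the 12 samples left out in turn. ARR6 lost its call without picloram replicate 3 of wild type (adjusted p = 0.060), and XTH32 without that sample or DMSO replicate 3 (adjusted p up to 0.057). Same-numbered picloram and DMSO samples of wild type deviated together from their group means (correlations of 0.38 to 0.67), and with the replicate number as a block the count of loci called lower was 27 in the fit to 12 samples, 35 with the block set within genotype and 73 in a fit to the wild-type groups alone. These fits called 442, 478 and 3249 (8.75%) of all transcripts lower, against 170 without the block. The last fit called 5 loci of the set higher, where 7.31% of all transcripts were. Where a change in wild type is given that was not called without a block but was called in that fit, its adjusted p there is added as the one with the block. Of the fits named here, that fit called the most transcripts lower. A locus of the set that was not called without a block and is given without this value was not called in that fit either.

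**Figure D2:**
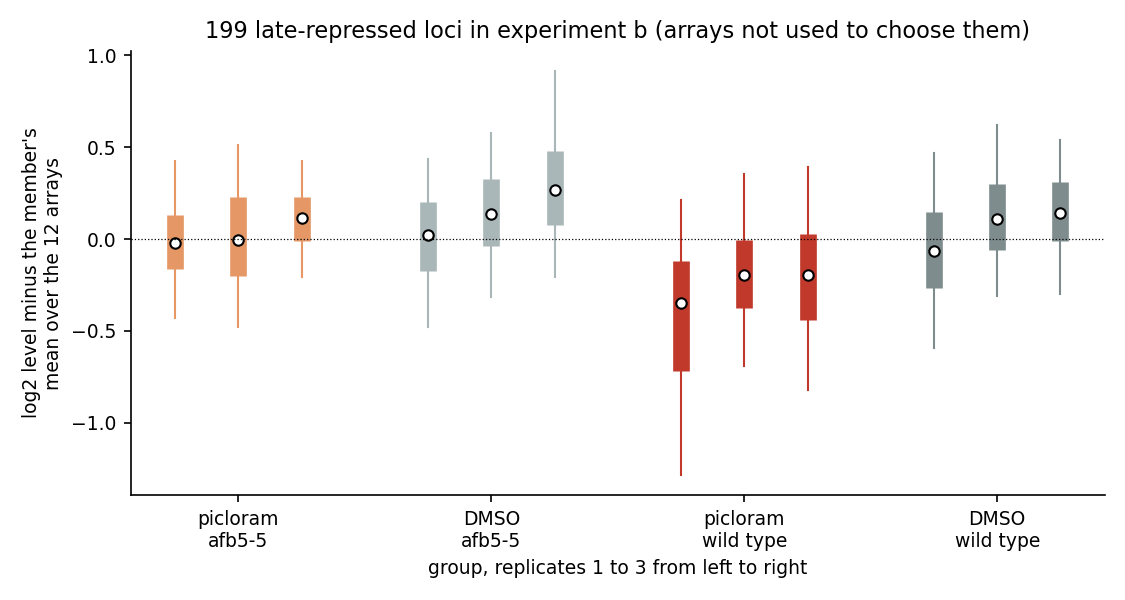
Log2 level of 199 loci in each array of experiment b, relative to each locus's mean over the 12 arrays, for picloram and DMSO in afb5-5 and then in wild type (circle, median; thick bar, middle 50%; thin line, 5th to 95th percentile). The medians lie at -0.02, -0.01 and 0.11 on picloram in afb5-5, against 0.02, 0.14 and 0.27 on DMSO, and at -0.35, -0.20 and -0.19 on picloram in wild type, against -0.07, 0.11 and 0.14 on DMSO.

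Within the set, the sizes of the differences in the 2 experiments were weakly correlated. Across the 199 loci the differences in the 2 experiments correlated at r = 0.15 (Spearman's rho = 0.13), a description over loci that share arrays within each experiment. The choice itself narrowed the range in experiment a, with the middle 50% of the set between -1.61 and -1.30. How far this narrowing affects the correlation was not tested, and loci outside the set were not included. Of the 50 loci with the most negative differences in experiment a, 9 were called lower in wild type of experiment b with a median change of -0.44, and of the 50 with the least negative differences 2 were called, with a median of -0.21. The brightness of some loci also differed between the chips. On the chip of experiment b, 19 of the 199 loci lay among the dimmest 25% of transcripts, and none of the 19 was called without the block. Their median change was 0.08, against -0.35 for the 180 brighter loci. Of these dim loci 6 (APT4, AT5G51970, AT1G54730, CML38, AT2G06000 and ERF73) lay among the brightest 25% on the chip of experiment a. AT1G54730 (-0.53) was called lower with the block (adjusted p = 0.023 with the block). AT2G25735 (0.88), also among the 19, was called higher with it (adjusted p = 0.0097 with the block).

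**Figure D3:**
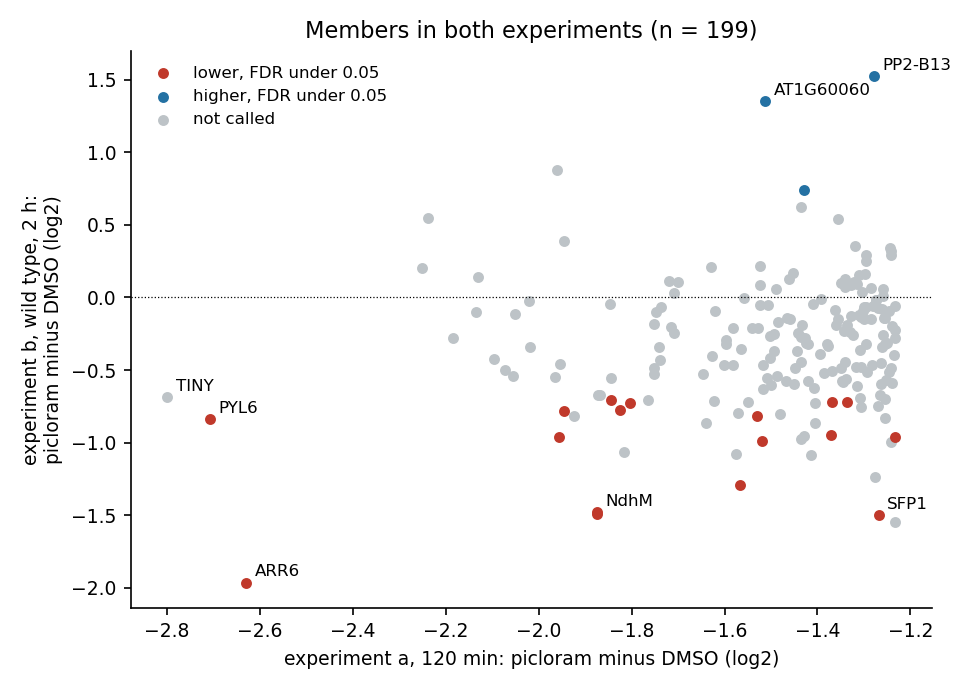
Difference between picloram and DMSO of 199 loci at 120 min in experiment a (x axis, log2, used to choose them) and at 2 h in wild type of experiment b (y axis, log2, not used). Red points were called lower (17), blue points higher (3) and grey points not called (179), and most loci lie below 0 on the y axis, at a median of -0.32.

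The type-A response regulators, which are induced by cytokinin and damp its signaling, were the hormone group with the largest single change. ARR6 had log2 levels of 6.94, 7.59 and 7.08 on picloram in wild type of experiment b, against 8.69, 9.76 and 9.06 on DMSO. Its change was -1.96 ± 0.34 (SE, adjusted p = 0.010), the most negative of all 199 loci. ARR5 (AT3G48100) had 9.71, 9.78 and 9.88 on picloram, against 10.35, 10.60 and 10.60 on DMSO, a change of -0.73 ± 0.14 (adjusted p = 0.016). In neither gene did the groups overlap, and the call of ARR5 was lost without any one of 5 wild-type samples (adjusted p up to 0.088). ARR15, the third regulator of the set, was dim on this chip at 6.37, 6.90 and 6.32 on picloram, against 6.20, 6.82 and 7.18 on DMSO, groups that overlapped (-0.21 ± 0.26, adjusted p = 0.74). Over the whole list of 10 type-A regulators, 3 were called lower and 0 higher, the third being ARR4 (-1.20, adjusted p = 0.029), which lay at only -0.33 at 120 min in experiment a. The list's median change was -0.39. Of 12 genes of cytokinin metabolism only 1 passed the limits of the choice and none belonged to the set. In wild type of experiment b, CYP735A2, which makes trans-zeatin forms, was called lower (-0.92, adjusted p = 0.0496), and the cytokinin oxidases CKX5 (0.81, adjusted p = 0.021) and CKX7 (0.82, adjusted p = 0.035) were called higher.

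PYL6 and PYL4 (AT2G38310), abscisic acid receptors of the PYR/PYL family, both belonged to the set, and PYL6 alone was called. PYL6 had 9.74, 9.94 and 10.16 on picloram in wild type of experiment b, against 10.79, 11.02 and 10.55 on DMSO. The groups did not overlap and the change was -0.84 ± 0.18 (adjusted p = 0.036), a call lost without any one of 9 samples (adjusted p up to 0.13). PYL4 had 12.83, 12.94 and 13.19 on picloram, against 13.37, 13.11 and 13.02 on DMSO. These overlapped (-0.18 ± 0.15, adjusted p = 0.60), although PYL4 had stood at -1.75 at 120 min in experiment a. Of the 14 listed receptors 1 was called lower and 0 higher, with a median of -0.21.

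Subunits of the chloroplast NDH complex, which carries cyclic electron flow around photosystem I, gave 3 loci of the set. NdhM (AT4G37925) had 9.60, 10.05 and 9.98 on picloram in wild type, against 11.08, 11.37 and 11.62 on DMSO. It was well separated at -1.48 ± 0.20 (adjusted p = 0.0022). NdhN (AT5G58260) had 9.91, 10.30 and 9.64 on picloram, against 10.53, 10.83 and 10.59 on DMSO, and the lumenal subunit PnsL3 (AT3G01440) had 10.44, 10.18 and 10.17, against 10.80, 10.49 and 10.70. The groups of these 2 genes did not overlap either, but NdhN (-0.70 ± 0.18, adjusted p = 0.084, adjusted p = 0.017 with the block) and PnsL3 (-0.40 ± 0.17, adjusted p = 0.32) were not called. Over 21 nuclear NDH genes 2 were called lower, NdhM and NdhS (-0.71, adjusted p = 0.044), 0 were higher and 19 of 21 lay below 0, with a median of -0.37. Of 23 light-harvesting and Rubisco genes none belonged to the set and none was called, with 18 of 23 below 0 and a median of -0.10. The 3 NDH loci had already lain lower on DMSO at 120 than at 30 min in experiment a (-0.51 for NdhM, -0.72 for NdhN and -0.71 for PnsL3), as had 38 loci of the set in all.

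Transporters made up a further group. SFP1 (AT5G27350), a sugar transporter of the ERD6-like family, had 9.86, 10.71 and 10.13 on picloram in wild type, against 11.55, 11.92 and 11.74 on DMSO. A change of -1.50 ± 0.23 (adjusted p = 0.0052) separated all treated from all control samples. In experiment a its difference at 120 min was -1.27. Its relative ESL1 (AT1G08920) had 11.56, 11.82 and 11.55 on picloram, against 12.23, 12.38 and 12.14 on DMSO, without overlap but not called (-0.61 ± 0.18, adjusted p = 0.15, adjusted p = 0.016 with the block). The vacuolar sugar transporter SWEET2 had a change of -0.32 ± 0.16 (adjusted p = 0.38). In the list of 21 sugar transporters 2 were called lower, SFP1 and SWEET12 (-1.05, adjusted p = 0.017), and 1 higher, STP1 (0.70, adjusted p = 0.011), with a median of -0.18.

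The UMAMIT family of membrane transporters, several of which export amino acids, gave 8 loci of the set, out of 46 family members on the chip of experiment a and 21 that passed the limits on level and on the 30 min difference. The family was picked out after its values were seen. Their differences at 120 min in experiment a ran from -1.84 (UMAMIT12 and UMAMIT21) to -1.24 (UMAMIT26). In wild type of experiment b, 7 of the 8 lay below 0, with a median of -0.54, and 1 was called. This was UMAMIT12 (AT2G37460), with 12.15, 12.57 and 12.62 on picloram, against 13.04, 13.25 and 13.18 on DMSO, groups that did not overlap (-0.71 ± 0.16, adjusted p = 0.038, lost without any one of 10 samples, up to 0.14). UMAMIT29 and UMAMIT17 had changes as large or larger but more variable arrays. UMAMIT29 (AT4G01430) had 8.38, 9.65 and 9.21 on picloram, against 9.83, 10.93 and 10.18 on DMSO, and UMAMIT17 (AT4G08300) had 8.52, 9.59 and 9.78, against 9.86, 10.78 and 10.51. Both were lower in every same-numbered pair. They were not called without a replicate block (-1.24 ± 0.34, adjusted p = 0.097, and -1.09 ± 0.34, adjusted p = 0.17). With the block in the fit to the wild-type groups alone they were called (adjusted p = 0.0039 for UMAMIT29 and adjusted p = 0.0077 for UMAMIT17). UMAMIT30 stood at -0.53 ± 0.24 (adjusted p = 0.028 with the block) and UMAMIT21 at -0.55 ± 0.19 (adjusted p = 0.025 with the block). UMAMIT44 stood at -0.34 ± 0.31 and UMAMIT20 at -0.27 ± 0.28, while UMAMIT26 stood at 0.34 ± 0.28. None of UMAMIT20, UMAMIT21, UMAMIT26, UMAMIT30 and UMAMIT44 was called without the block. UMAMIT20 and UMAMIT17 are neighbouring genes in the annotation, and whether their probes read each other's RNA was not tested. Of the 46 family members on the chip of experiment b 2 were called lower and 0 higher, with a median of -0.28.

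Among genes of defence metabolism the set held 3 genes of aliphatic glucosinolate synthesis, CYP79F2, which acts on chain-elongated methionine, GSTF11, a glutathione transferase, and FMO GS-OX3, which oxidizes the side chain, and the indole glucosinolate activator MYB34. FMO GS-OX3 (AT1G62560) had 11.00, 11.63 and 11.56 on picloram in wild type, against 11.46, 12.27 and 12.25 on DMSO (-0.60 ± 0.24, adjusted p = 0.30, adjusted p = 0.019 with the block). MYB34 (AT5G60890) had 9.28, 10.37 and 9.92, against 10.09, 11.14 and 10.76 (-0.81 ± 0.33, adjusted p = 0.30, adjusted p = 0.0075 with the block). In both the groups overlapped while each same-numbered pair was lower on picloram, and both were called lower only with the pairs as a block. CYP79F2, with a difference of -1.52 in experiment a, had 12.50, 12.77 and 12.74 on picloram, against 12.31, 13.01 and 12.83 on DMSO, which did not separate (-0.05 ± 0.20, adjusted p = 0.92), and GSTF11 stood at -0.37 ± 0.29. Of the 24 aliphatic genes 0 were called in either direction, with 19 below 0 and a median of -0.33. Of the 13 indole genes 1 was called lower, CYP79B3 (-0.66, adjusted p = 0.048), and 2 higher, MYB51 (1.14) and CYP81F2 (1.74). The sulfate assimilation gene APK1 stood at -0.07 ± 0.25 and the anthocyanidin synthase gene LDOX, at dim levels, at 0.16 ± 0.34. LDOX varied widely between replicates of experiment a at 30 min, with 6.96, 12.25 and 11.41 on picloram, against 8.18, 12.17 and 9.45 on DMSO.

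The triterpene gene CYP708A2 (AT5G48000), which hydroxylates thalianol and is best known from roots, was called lower. It had 8.82, 9.18 and 8.86 on picloram in wild type, against 9.83, 9.73 and 10.14 on DMSO (-0.95 ± 0.15, adjusted p = 0.0065), with no overlap. A list of 11 root markers that includes it had mean log2 levels per array of 8.10 to 8.22 on picloram in wild type, against 8.38 to 8.83 on DMSO, and of 8.22 to 8.58 on picloram in afb5-5, against 8.11 to 8.85 on DMSO. Of these 11 genes CYP708A2 was the only one called, 10 lay below 0 and 1 lay among the dimmest 25% of the chip. At 120 min in experiment a the list was mixed, with a median difference of -0.09. There the root-hair genes EXPA7 (2.67) and EXPA18 (2.60) lay higher on picloram, while THAS1 (-1.17) and CYP708A2 (-1.37) lay lower. Whether root tissue had a part in the change of CYP708A2 was not tested.

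The other loci called lower had varied roles. SMZ (AT3G54990), an AP2-type repressor of flowering, had 11.44, 11.51 and 11.44 on picloram in wild type, against 12.58, 12.41 and 12.28 on DMSO (-0.96 ± 0.15, adjusted p = 0.0055). XTH32 (AT2G36870), a xyloglucan endotransglucosylase/hydrolase of the cell wall, had 11.03, 11.40 and 11.26, against 11.99, 12.39 and 12.29 (-0.99 ± 0.17, adjusted p = 0.011). Both stood clear of the control arrays. MES9 (AT4G37150), of the methyl esterase family, had 11.67, 11.21 and 11.63, against 12.27, 12.36 and 12.77 (-0.96 ± 0.21, adjusted p = 0.033, lost without any one of 7 samples, up to 0.15). RMA2 (AT4G28270), a membrane-anchored RING-type ubiquitin ligase, had 10.15, 10.41 and 10.67, against 10.93, 11.40 and 11.36 (-0.82 ± 0.19, adjusted p = 0.049, lost without any one of 11 samples, up to 0.18). A further 3 loci are known here by identifier only.

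AT3G15720 had 7.64, 7.99 and 7.47 on picloram in wild type, against 9.04, 9.28 and 9.25 on DMSO (-1.49 ± 0.22, adjusted p = 0.0040), and its second splice form on the chip changed alike (-1.27 ± 0.21, adjusted p = 0.0072). AT2G17710 had 8.67, 9.26 and 9.27, against 10.22, 10.36 and 10.49 (-1.29 ± 0.21, adjusted p = 0.0069). AT5G66520 had 8.38, 8.63 and 8.43, against 9.45, 9.14 and 9.20 (-0.78 ± 0.17, adjusted p = 0.033, lost without any one of 7 samples, up to 0.15). All 3 had separate groups. The remaining called loci, AT5G62900, ACL, CP12-3, ARR5 and UMAMIT12, ran from -0.78 to -0.71. The calls of AT5G62900, ACL and CP12-3 were lost without any one of 5, 4 and 8 samples (adjusted p up to 0.11, 0.071 and 0.16). Among them CP12-3 belongs to the CP12 family that regulates the Calvin cycle.

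**Figure D4:**
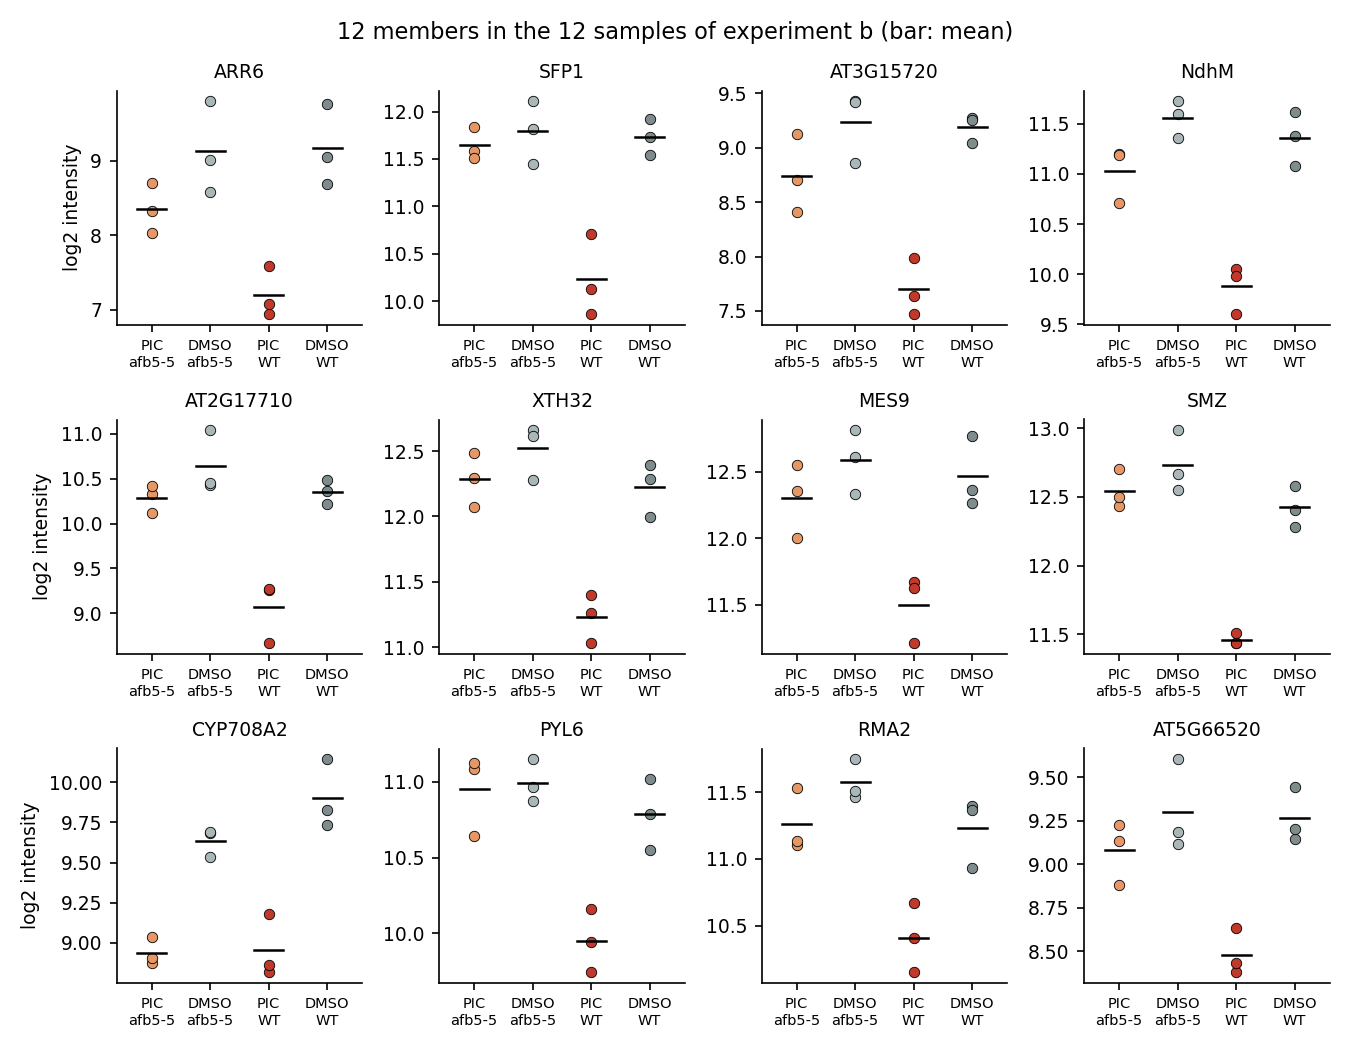
Log2 intensity of 12 loci called lower in wild type, in the 12 samples of experiment b (points, samples; bars, group means; each panel has its own axis, which does not start at 0). In every panel the 3 picloram samples of wild type lie below the 3 DMSO samples of wild type, and in the CYP708A2 panel the picloram samples of afb5-5 lie as low as those of wild type.

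The loci with the largest differences in experiment a had mixed values in experiment b. TINY had 9.93, 10.18 and 10.25 on picloram in wild type, against 10.71, 10.89 and 10.82 on DMSO, which did not overlap, with every same-numbered pair lower. Its change of -0.69 ± 0.23 was called only with the block (adjusted p = 0.20, adjusted p = 0.013 with the block). Its relative TINY2, noticed after its values were seen, stood at -0.87 ± 0.24 (adjusted p = 0.10, adjusted p = 0.011 with the block). AT1G72416 lay between 9.74 and 10.02 on picloram, against 9.54, 10.26 and 9.37 on DMSO (0.20 ± 0.26, adjusted p = 0.75). AT1G47400 had 8.88, 8.37 and 8.98, against 8.32, 7.53 and 8.73 (0.55 ± 0.59, adjusted p = 0.69, adjusted p = 0.044 with the block). In both genes the groups overlapped and the change in experiment b was above 0, while AT4G10600 stood at -0.28 ± 0.31. JAZ7, a repressor of jasmonate signaling, had 9.18, 9.54 and 9.14 after 120 min on picloram in experiment a, against 11.77, 11.43 and 10.50 on DMSO. On the chip of experiment b it was dim at 7.23, 7.56 and 6.74 on picloram, against 6.81, 7.03 and 6.52 on DMSO (0.39 ± 0.24, adjusted p = 0.47). The jasmonate transcription factor MYC4 stood at -0.46 ± 0.18 (adjusted p = 0.28, adjusted p = 0.033 with the block). Of 20 jasmonate signaling genes 0 were called lower and 2 higher, JAZ1 (1.24, adjusted p = 0.018) and JAZ3 (adjusted p = 0.025), neither of which is in the set. The stress-related loci WRKY18, ZAT12, CML37, CML38 and ERF104, picked out after their values were seen, had differences down to -2.05 (WRKY18) in experiment a and changes of -0.26 to 0.54 in wild type of experiment b, none of them called with or without the block. ZAT12 also differed between replicates of experiment a, at 13.17, 10.25 and 13.50 after 120 min on picloram, against 14.48, 11.75 and 14.66 on DMSO.

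A group of 3 loci was called in the opposite direction, higher on picloram in wild type of experiment b. PP2-B13 (AT1G56240), of the phloem protein 2 family, had 9.59, 9.77 and 9.69 on picloram, against 7.93, 8.44 and 8.10 on DMSO (1.53 ± 0.17, adjusted p = 0.00070). In experiment a it had 11.18, 11.09 and 10.31 after 120 min on picloram, against 12.55, 12.36 and 11.51 on DMSO. AT1G60060 had 10.26, 10.64 and 10.55 on picloram in experiment b, against 8.94, 9.11 and 9.33 on DMSO (1.35 ± 0.18, adjusted p = 0.0020). In experiment a it had 12.62, 12.65 and 12.53, against 14.17, 14.04 and 14.13. The groups of both genes were thus separate in both experiments, in opposite directions. AP2C1, a phosphatase acting on MAP kinases, was called at 0.74 ± 0.17 (adjusted p = 0.047, lost without any one of 10 samples, up to 0.24), and AT2G25735 at 0.88 ± 0.21 was called only with the block (adjusted p = 0.051, adjusted p = 0.0097 with the block). The 2 experiments differed in dye, amplification and probes, and the part of these in the opposite directions was not tested.

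In the receptor mutant the same loci lay closer to their controls. No locus of the set was called in afb5-5 in either direction, and none of all 37118 transcripts was (0%). At an unadjusted p under 0.05 the set held 6 lower and 0 higher loci, where 0.506% of all transcripts were lower and 0.528% higher. Its median change was -0.11, and 141 of 199 loci lay below 0, against a median of 0.00 and 50.3% of all transcripts. The picloram and DMSO arrays did not overlap for 10 loci in the lower direction (1.75% of all transcripts) and for 2 in the higher (1.73%). Of the 17 loci called lower in wild type, 16 lay below 0 in afb5-5, from -0.77 to 0.03 with a median of -0.27. Across the 199 loci the changes in wild type and in afb5-5 correlated at r = 0.66 (Spearman's rho = 0.65). This is a description over loci that share arrays within each genotype.

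The most negative values in the mutant were those of ARR6 (-0.77 ± 0.34), CYP708A2 (-0.70 ± 0.15) and AT4G16750 (-0.68 ± 0.39, a locus that stood at -1.55 in wild type with an adjusted p of 0.071 and an adjusted p of 0.0068 with the block), each with an adjusted p of 1.00. CYP708A2 had 8.88, 8.90 and 9.04 on picloram in afb5-5, against 9.68, 9.69 and 9.53 on DMSO, and ARR5 had 9.72, 9.83 and 10.02, against 10.54, 10.36 and 10.56. The arrays of both genes did not overlap between treatments. SFP1 by contrast had 11.58, 11.51 and 11.84 on picloram in afb5-5, against 11.45, 12.11 and 11.82 on DMSO, and PYL6 had 11.08, 10.64 and 11.13, against 11.15, 10.87 and 10.97, with groups that overlapped.

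The test of the difference between the genotypes, the change in wild type minus that in afb5-5, gave 0 loci called below 0 and 1 above, where 0.00539% and 0.097% of all transcripts were called. The median of this difference over the set was -0.22, and 153 of 199 loci lay below 0, against a median of -0.02 and 53.0% of all transcripts below 0. At an unadjusted p under 0.05 the set held 20 loci below 0 and 4 above, where 1.17% of all transcripts were below and 2.92% above. The 1 call was PP2-B13, with changes of 0.00 ± 0.17 in afb5-5 and 1.53 ± 0.17 in wild type (difference 1.52 ± 0.24, adjusted p = 0.041). It was called with 1 of the 12 samples left out and not with the 11 others (adjusted p up to 0.16). For SFP1 the changes were -0.15 in afb5-5 and -1.50 in wild type, a difference of -1.35 ± 0.33 (adjusted p = 0.29). ARR5 stood at -0.63 ± 0.14 in afb5-5 and -0.73 ± 0.14 in wild type, a difference of -0.10 ± 0.19 (adjusted p = 1.00). With 3 arrays per group, the loss of a lower call in afb5-5 is therefore not shown to be a difference between genotypes for any single locus of the set.

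**Figure D5:**
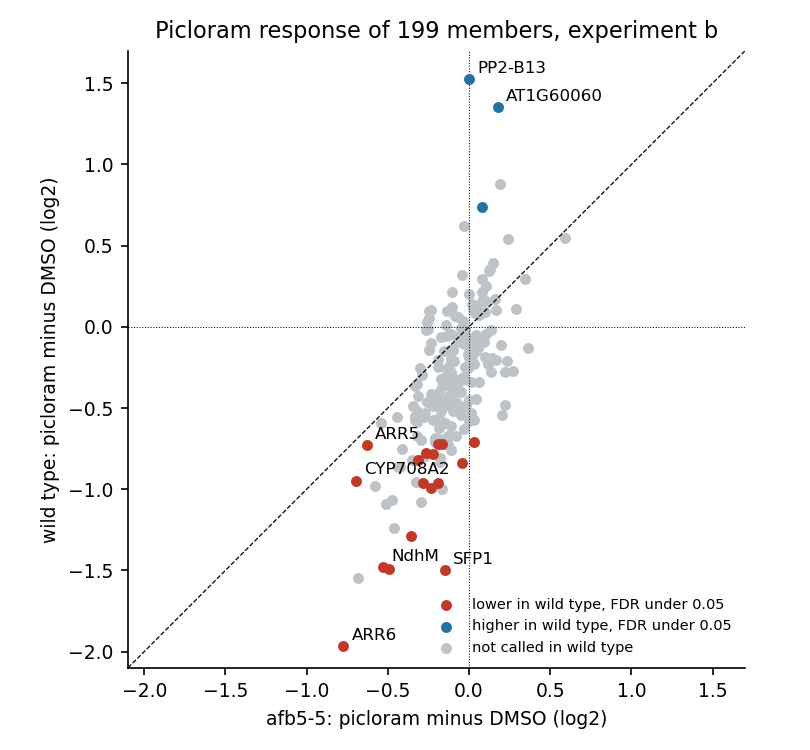
Change between picloram and DMSO of 199 loci in afb5-5 (x axis, log2) and in wild type (y axis, log2) of experiment b; the dashed line marks equal changes. Red points were called lower (17) and blue points higher (3) in wild type, none was called in afb5-5, and ARR5 and CYP708A2 lie near the dashed line while SFP1 lies far below it.

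Set directly against each other on picloram, the genotypes did differ. Differences are given here as wild type minus afb5-5. Of the 199 loci 12 were called lower and 1 higher in wild type, where 0.264% of all transcripts were called lower and 0.978% higher, and the median difference was -0.28, against -0.03 over all transcripts. At an unadjusted p under 0.05 the set held 60 lower and 5 higher loci, where 3.43% of all transcripts were lower and 5.58% higher. SMZ had 12.70, 12.43 and 12.50 on picloram in afb5-5, against 11.44, 11.51 and 11.44 in wild type (-1.08 ± 0.15, adjusted p = 0.0045), and it was called with every sample left out. SFP1 (-1.41 ± 0.23, adjusted p = 0.012), AT2G17710 (-1.22 ± 0.21, adjusted p = 0.016), NdhM (-1.15 ± 0.20, adjusted p = 0.016), XTH32 (-1.05 ± 0.17, adjusted p = 0.013) and PYL6 (adjusted p = 0.022, with groups that did not overlap) were called in the same direction. Lhca6, an antenna protein that helps to join the NDH complex to photosystem I, had 11.45, 11.75 and 11.89 in afb5-5, against 10.74, 10.85 and 10.91 in wild type (-0.86 ± 0.17, adjusted p = 0.033). AT5G05250 (-0.95 ± 0.15), DIR1 (-1.05 ± 0.20), AT3G15720 (-1.05 ± 0.22), AT4G30450 (-0.73 ± 0.15) and ACL (-0.66 ± 0.13) completed the 12. PP2-B13 was the 1 higher (1.61 ± 0.17, adjusted p = 0.00086).

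The count of 12 fell to 4, 7 and 2 without picloram replicates 1, 2 and 3 of wild type, and to 7 and 1 without picloram replicates 1 and 3 of afb5-5. Only SMZ and PP2-B13 were called with each sample left out. On DMSO no locus of the set was called between the genotypes in either direction, and none of all transcripts was (0%). The set held 4 loci at an unadjusted p under 0.05, all higher in afb5-5 (0.585% of all transcripts were higher and 0.326% lower), and its median difference, afb5-5 minus wild type, was 0.06.

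For comparison, the 200 loci with the most positive differences at 120 min under the same limits, 199 of them on the chip of experiment b, gave 37 called higher and 0 called lower in wild type, with a median of 0.43, and 0 called in afb5-5, with a median of 0.09. In experiment a their levels on DMSO had a median change of -0.58 between 30 and 120 min, and on picloram of 0.95. Loci as low as the set at 120 min that were already below the 30 min limit were 70 on the chip of experiment b, of which 13 were called lower and 1 higher, with a median of -0.54. Those above the limit at 30 min were 22, with 0 called and a median of -0.37. In wild type 1.71% of all transcripts were called higher and 0.458% lower, at a median of -0.03. Of 12955 loci passing the limits on level and on the 30 min difference, 311 were called higher and 78 lower, at a median of 0.09. No test was made between any of these groups of loci.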

How the data were processed

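Dissected hypocotyls were profiled on 2 NimbleGen chips, one for each experiment, with 12 samples in each. Per the study's methods the authors normalized all arrays by RMA, and the deposited values are probe-set intensities per transcript on a linear scale. Deposited array medians of experiment a still differed, so its log2 values were quantile normalized, and those of experiment b were used as log2 of the deposited intensity. Each locus was read on the second chip from its lowest-numbered splice form. A linear model with 4 group means was fitted to the 12 samples with limma (version 3.58.1, run under R 4.3.3) and its moderated statistics were used, with Benjamini-Hochberg adjustment over 37118 transcripts and FDR under 0.05. P-values measure the spread between 3 pooled replicates per group, whose number limits the precision. Figures were drawn with matplotlib 3.10.9. On simulated data for the wild-type comparison, 41% of transcripts lowered by 1 on the log2 scale and 90% of those lowered by 2 were recovered. For the difference between the genotypes these shares were 19% and 63%. The simulated samples varied independently, unlike the same-numbered samples of wild type, so the shares need not hold for these arrays.

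Members and the 17 gene lists (273 entries, 3 of them dropped because the annotation did not give the listed symbol for that locus) were chosen with earlier results of these data known. Named genes were the 12 called lower in wild type with the most negative change and lower in all 3 numbered pairs, the 6 most negative in experiment a, the 3 most positive in wild type and the 3 most negative in afb5-5 of experiment b, members of the lists, and the loci beside the limit. Others are named for a count or because their values drew attention. Symbols came from the RefSeq annotation, which held 199 of the 200 loci. Same-numbered samples deviated together in wild type (correlations 0.38 to 0.67) and less in afb5-5 (0.04 to 0.18). Alternatives covered normalization, replicate blocks, the samples in the fit, thresholds, the limits of the choice and each sample left out. Promoter motifs were not analysed here.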

Additional observations from a re-analysis of the deposited data

Results flagged for a closer look

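PP2-B13 was singled out because its response to picloram differed between the genotypes by a test of the difference itself. Its change was 0.00 ± 0.17 in afb5-5 and 1.53 ± 0.17 in wild type (SE, n = 3 per group), and the change in wild type minus that in afb5-5 was 1.52 ± 0.24 (limma, adjusted p = 0.041). Over 19 alternatives the adjusted p ran from 0.035 to 0.16, and 5 of them kept the call. In experiment a the same locus lay lower on picloram at 120 min, and the reason for the opposite directions was not tested.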

How the results depend on the processing

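The median change of the set kept its sign in every alternative run, at -0.42 to -0.23 in wild type, while counts of calls moved more. The 17 loci called lower in wild type became 27 with the replicate number as a block over the 12 samples and 35 with the block within genotype. They became 73 with the block in a fit to wild type alone and 7 with only the groups compared. Over all transcripts these fits called 442, 478, 3249 and 60 lower, against 170 in the main fit. At FDR under 0.01 the count was 6. Leaving out 1 sample of experiment b gave 6 to 19, with 52 to 210 over all transcripts. Other choices of loci gave 11 with a 30 min limit of 0.15 (116 loci shared with the set) and 31 among 400 loci. Leaving out 1 sample of experiment a also changed the loci chosen (142 to 177 shared) and gave 12 to 22. The 3 called higher became 5 with the block in the wild-type fit, 6 among 400 loci and 2 to 3 with 1 sample left out. The 1 locus of the genotype difference became 0 under quantile normalization, the block over 12 samples, a variance trend and FDR under 0.01, and 0 to 1 with 1 sample left out. Between genotypes on picloram, the 12 lower loci became 2 with only the groups compared, 2 at FDR under 0.01 and 1 to 13 with 1 sample left out, and the 1 higher became 2 under quantile normalization, 2 with the block and 1 to 2 with 1 sample left out. The cause of these shifts was not tested. Signs turned only for loci that were not called, AT2G06045 (0.051 under quantile normalization), and, with 1 sample left out, AT2G06045 (-0.24 to 0.10), CYP79F2 (-0.25 to 0.093), ARR15 (-0.47 to 0.016), APK1 (-0.23 to 0.044) and LDOX (-0.18 to 0.61). The block within genotype was not run for the direct comparisons of the genotypes on picloram and on DMSO. Dim signal on the second chip limits 19 of the 199 loci.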
